A study of Caenorhabditis elegans with 3 samples.

Results

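The F-box B and F-box C genes of the nematode Caenorhabditis elegans were taken as every gene named fbxb or fbxc with a number in both deposited gene tables. This gave 168 of the 46135 genes listed, of which 113 were fbxb and 55 were fbxc genes. F-box proteins are the exchangeable adaptors of SCF ubiquitin ligases: the F-box motif binds a Skp1-related (SKR) protein, which joins it to the cullin CUL-1 and the RING protein RBX-1, and the rest of the protein is thought to hold the substrate. Nematode genomes carry large, fast-changing families of F-box genes, many of them in tandem on chromosome arms. For most fbxb and fbxc genes no role of their own is established, so they are described here by level, position and copy.

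Messenger RNA was measured in 3 libraries of wild-type N2 worms at larval stage L4, with 1 library per group. RNAi was given by feeding. The control group ate bacteria directed against gfp, which wild-type worms lack, and the other groups ate bacteria directed against ham-3 or swsn-2.2, genes for paralogous accessory subunits of SWI/SNF, a complex that remodels chromatin. All groups grew for 36 hours, at 25 °C per the series design and at 35 °C per the growth protocol, so the temperature is uncertain. RNA came from whole animals, so fewer cells of a type and less RNA per cell cannot be told apart.

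Levels are FPKM, which scales the sequenced fragments of a gene by transcript length and by the mapped fragments of the library. The inferred depth was near 19620000 fragments in the control library, near 30790000 in the library labelled ham-3 and near 30820000 with swsn-2.2 RNAi. The ham-3 gene was at 19.3 FPKM in the control library, 23.1 in the library labelled ham-3 and 31.5 in the swsn-2.2 library. The swsn-2.2 gene was at 19.3 and 37.8 FPKM in the first and second of these and was listed at 0 in the third. The ham-3 level thus goes against its label, and that library is called the library labelled ham-3. In the swsn-2.2 library 306 of the 14816 genes with a mean of at least 1 FPKM over the 3 libraries were listed at 0. The 0 of swsn-2.2 alone therefore does not measure the knockdown. With no replicates, no difference below has a test across animals.

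Most F-box B and C genes were barely detected in L4 larvae. Of the 168 genes, 58 were listed at 0 in all 3 libraries, 86 were above 0 with a mean under 1 FPKM over the 3 libraries, and 24 reached a mean of at least 1 FPKM. The last are 14.3% of the members, whereas 70.5% of all 19521 protein-coding genes reached that mean. The share listed at 0 throughout was 34.5% for the members and 8.19% for protein-coding genes. A value of 0 is not proof of silence in these tables, since the cullin gene cul-2 and the signalosome gene csn-1, which dividing cells use, were also listed at 0 in all 3 libraries.

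The F-box B class was the weaker. Among the 113 fbxb genes, 6 reached a mean of 1 FPKM, 0 reached 5 FPKM, and 45 were listed at 0 in every library. Among the 55 fbxc genes, 18 reached 1 FPKM, 10 reached 5 FPKM, 6 reached 10 FPKM, and 13 were listed at 0 in every library. Summed over the class, fbxb genes gave 19.4 FPKM in the control library, 15.1 in the library labelled ham-3 and 19.3 in the swsn-2.2 library, while fbxc genes gave 184, 177 and 191. The 222 fbxa genes, the largest of the lettered F-box classes here, gave 1191, 1028 and 1241 FPKM in the same order. Of the fbxa genes, 134 reached a mean of 1 FPKM and 14 were listed at 0 throughout.

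**Figure D1:**
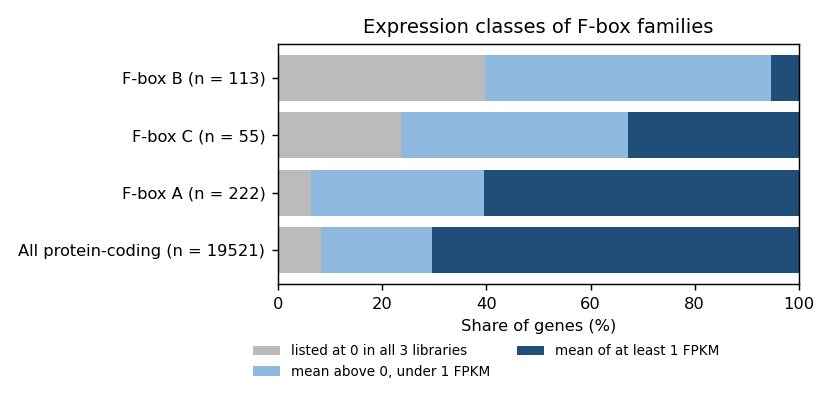
Share of genes (%) listed at 0 in all 3 libraries, above 0 with a mean under 1 FPKM, or with a mean of at least 1 FPKM, for F-box B, C and A genes and all protein-coding genes. The darkest segment covers 5.31% of F-box B, 32.7% of F-box C, 60.4% of F-box A and 70.5% of protein-coding genes.

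A few genes carried most of the F-box C signal. The gene fbxc-1 (C44C8.4; WBcel235 chromosome IV, 891239 to 892614, plus strand) was at 60.7 FPKM in the control library, 58.5 in the library labelled ham-3 and 56.2 in the swsn-2.2 library. It made up 32.9%, 33.1% and 29.4% of the fbxc total in that order. The levels fell within a narrow band, and the value listed for fbxc-1 alone exceeded the summed fbxb level in every library. This gene stands in an array of like copies described below, whose reads may be mixed in, so its own level is uncertain.

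The next gene was fbxc-44 (C16A11.6; chromosome II, 4236504 to 4237751, minus strand), at 24.0 FPKM in the control, 22.4 in the library labelled ham-3 and 25.9 in the swsn-2.2 library. Its neighbour fbxc-43 (C16A11.9; chromosome II, 4234903 to 4235996, minus strand) was at 6.64, 6.10 and 7.05 FPKM. Both neighbours were lowest in the library labelled ham-3 and highest in the swsn-2.2 library, with small distances between libraries.

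The gene fbxc-50 (C17F4.5; chromosome II, 3246316 to 3248123, minus strand) was at 16.6 FPKM in the control, 15.9 in the library labelled ham-3 and 19.4 in the swsn-2.2 library. The gene fbxc-47 (M02B7.1; chromosome IV, 3805519 to 3806712, plus strand) was at 14.8, 13.1 and 15.1 FPKM, and it overlaps the opposite-strand gene M02B7.7, whose reads may be mixed in. These genes showed the same order as fbxc-44.

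The gene fbxc-45 (Y54G2A.22; chromosome IV, 2919827 to 2922243, minus strand) was at 11.2 FPKM in the control, 12.2 in the library labelled ham-3 and 13.8 in the swsn-2.2 library. The gene fbxc-54 (F23F1.3; chromosome II, 31719 to 33611, plus strand), near the left end of its chromosome, was at 9.48, 9.80 and 11.3 FPKM. The gene fbxc-52 (C46E10.4; chromosome II, 3717261 to 3719764, plus strand) was at 7.35, 7.47 and 7.83 FPKM. In these 3 genes the gfp library was the lowest and the swsn-2.2 library the highest.

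Below 5 FPKM, fbxc-48 was at 3.66 FPKM in the control, 3.81 in the library labelled ham-3 and 3.37 in the swsn-2.2 library. The gene fbxc-49 was at 3.02, 3.02 and 3.05 FPKM, the smallest spread among the 24 members. The gene fbxc-23 was at 2.65, 2.23 and 3.01 FPKM, and fbxc-20, which overlaps the same-strand gene F42G2.7, at 1.82, 1.56 and 1.74. For fbxc-49 the highest level was 1.01 times the lowest, while the median of that ratio was 1.22 over the 24 members and 1.20 over all genes of such a mean above 0 in every library.

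The most abundant F-box B gene was fbxb-7 (Y20C6A.2; chromosome V, 17377406 to 17379233, plus strand), at 3.50 FPKM in the control, 2.60 in the library labelled ham-3 and 4.02 in the swsn-2.2 library. It was followed by fbxb-36 at 2.96, 2.67 and 2.74 FPKM and by fbxb-97 (C52E2.6; chromosome II, 1846977 to 1848161, minus strand) at 1.43, 0.846 and 1.89. The remaining fbxb genes above the mean of 1 FPKM were fbxb-38, fbxb-14 and fbxb-4. These 6 genes gave 63.0% of the summed fbxb level in the control, 63.0% in the library labelled ham-3 and 63.9% in the swsn-2.2 library.

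**Figure D2:**
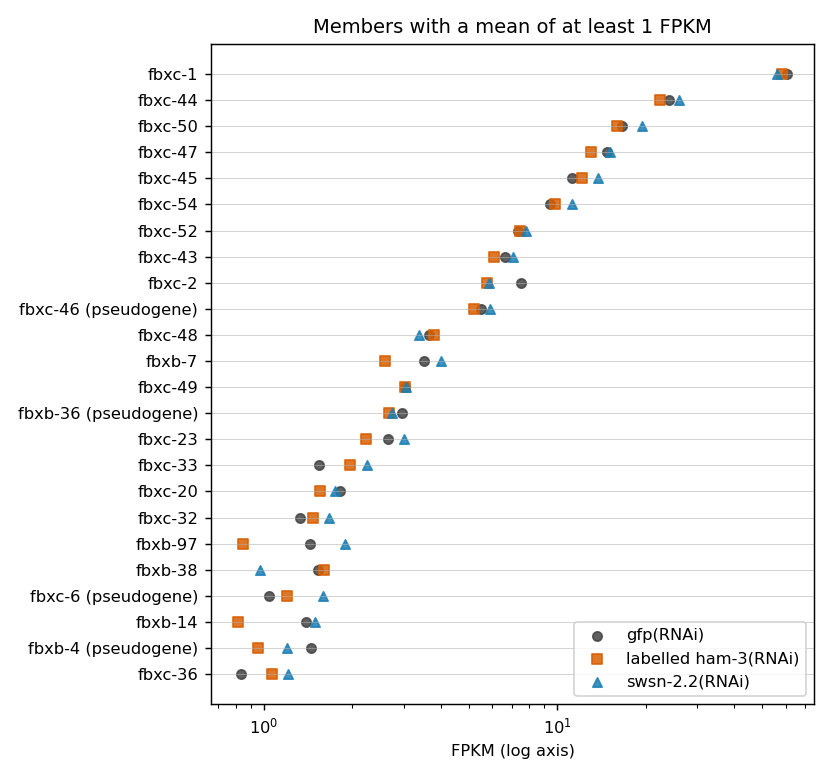
FPKM (log axis) of the 24 members with a mean of at least 1 FPKM, with 1 point per library, ordered by mean. The points of a gene lie close together for most members, and fbxb-97 has the widest gap, from 0.846 FPKM in the library labelled ham-3 to 1.89 in the swsn-2.2 library.

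Annotation as a pseudogene did not separate detected from undetected members. Ensembl annotates 17 of the 168 members as pseudogenes, of which 4 reached a mean of 1 FPKM, against 20 of the 151 protein-coding members. The pseudogene fbxc-46 (Y37H2A.9; chromosome V, 18136704 to 18137714, minus strand) was at 5.49 FPKM in the control, 5.20 in the library labelled ham-3 and 5.90 in the swsn-2.2 library. The others were fbxb-36, fbxc-6 and fbxb-4. The pseudogene fbxb-4 was at 1.44, 0.955 and 1.20 FPKM, and fbxc-6 at 1.04, 1.19 and 1.59. The deposited interval of fbxb-36 lies outside its current annotated span, which overlaps the same-strand gene F07E5.13, so the model behind its value is uncertain.

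The members were concentrated on chromosome II. It held 103 of them (63 fbxb and 40 fbxc), chromosome IV held 23, V held 17, I held 11, III held 9 and X held 5. On chromosome II, 101 of the 103 lay between positions 31719 and 4827884. In that interval 15.8% of members reached a mean of 1 FPKM and 38.6% were listed at 0 in all libraries. Of the 1020 other protein-coding genes of the same interval without an fbxa, fbxb or fbxc name, 53.3% reached that mean and 12.3% were listed at 0 throughout.

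Many members stood in tandem groups. With members joined when the gap to the next was at most 20000 bp, 17 groups held 3 or more members and 114 members in all. Of those 114, 9 reached a mean of 1 FPKM (7.89%), and 48 were listed at 0 in all libraries. Of the 54 members outside such groups, 15 reached that mean (27.8%), and 10 were listed at 0 throughout. Among fbxc genes alone, 7 of 37 grouped and 11 of 18 other genes reached it. In 13 of the 17 groups no member did. One of these was the group from fbxb-17 to fbxb-11 (chromosome II, 1676388 to 1725693), where 10 of 12 members were listed at 0 in every library. The group of fbxb-31, fbxb-32 and fbxb-33 (chromosome II, 3637805 to 3648685) was listed at 0 throughout.

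The largest group held 26 members, 23 fbxc and 3 fbxb, on chromosome II between 907448 and 1001451. Its summed level was 7.88 FPKM in the control, 7.75 in the library labelled ham-3 and 9.53 in the swsn-2.2 library. The 4 members above a mean of 1 FPKM were fbxc-33, fbxc-36, fbxc-32 and fbxc-6. The gene fbxc-33 was at 1.54, 1.96 and 2.25 FPKM in that order of libraries, fbxc-36 at 0.835, 1.06 and 1.21, and fbxc-32 at 1.33, 1.47 and 1.67. All 4 were lowest in gfp and highest in the swsn-2.2 library. Within the same group 8 members were listed at 0 in all libraries.

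On chromosome IV an array of 10 fbxc genes between 891239 and 911196 repeated a pair of genes 5 times. The pair is a gene with an annotated span of 1376 bp (fbxc-1, fbxc-2, fbxc-4, fbxc-5 and fbxc-3 in order) followed by a longer gene (fbxc-9, fbxc-10, fbxc-11, fbxc-12 and fbxc-8), and like genes start 4152 or 4153 bp apart. The exon length of the shorter gene is 1128 bp in all 5 copies. Ensembl gives several of these loci the same name: the locus called fbxc-1 in the tables carries the Ensembl name fbxc-5, and those called fbxc-2 and fbxc-3 carry the name fbxc-4.

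Reads were unevenly assigned across this array. Next to fbxc-1, the gene fbxc-2 was at 7.52 FPKM in the control, 5.77 in the library labelled ham-3 and 5.86 in the swsn-2.2 library, while fbxc-3, fbxc-4 and fbxc-5 were listed at 0 in all libraries. Among the longer genes, fbxc-9 was at 0.487, 0.750 and 0.647 FPKM and fbxc-8 at 0.268, 0.379 and 0.186, and the other 3 were listed at 0. How the authors' program divided reads among such like copies is not given in the sources used here, so the value of any single copy is uncertain. Summed over the 5 shorter genes, the level was 68.2 FPKM in the control, 64.3 in the library labelled ham-3 and 62.0 in the swsn-2.2 library. The log2 ratios of these sums plus 1 FPKM to gfp were -0.09 and -0.14.

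**Figure D3:**
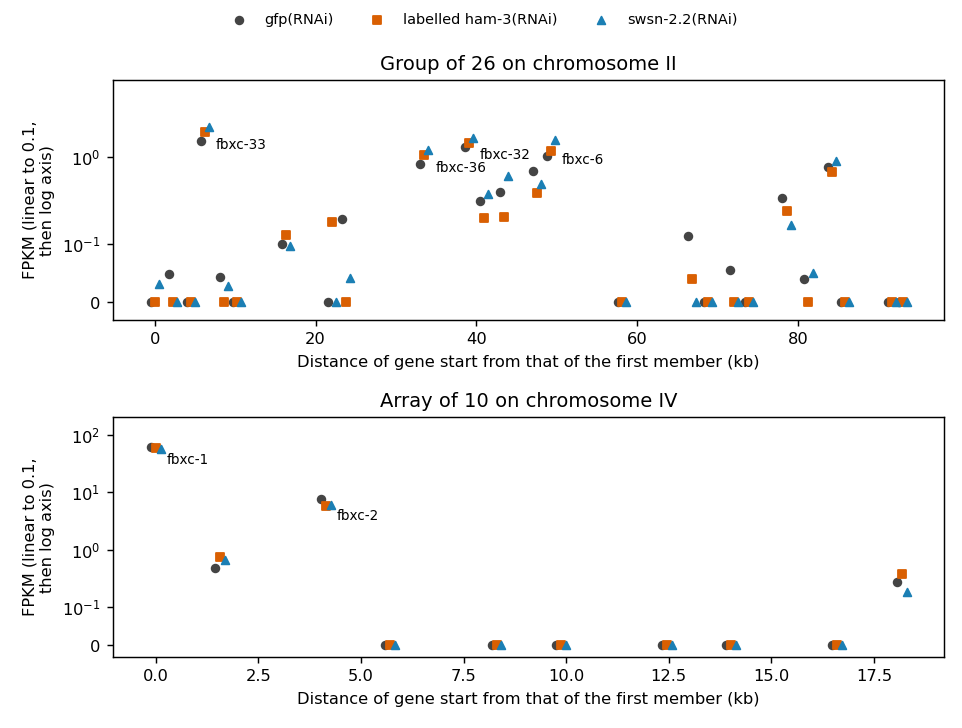
FPKM of each member (linear up to 0.1, then a log axis) against the distance of its start from that of the first member (kb), for the group of 26 on chromosome II and the array of 10 on chromosome IV, with 1 point per library. In the upper panel most members lie at or near 0, and 4 reach a mean of 1 FPKM, and in the lower panel fbxc-1 stands at 56.2 to 60.7 FPKM while 6 copies are listed at 0.

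The first comparison asked whether F-box B and C genes differed in the library labelled ham-3 from the gfp control. None of the 24 members with a mean of at least 1 FPKM was 1.5-fold higher or lower on the scale of FPKM + 1, where 7.55% of all 14816 genes with such a mean were (3.63% higher and 3.91% lower). Leaving out genes listed at 0 in any library kept all 24 members, and the shares were then 1.65% higher and 2.80% lower. The members' log2 ratios lay between -0.40 and 0.22, with 15 below 0 and 9 above. Of all 14816 genes with a mean of at least 1 FPKM, 43.5% were below 0 and 55.7% above. The members' median was -0.06, beside 0.03 over all such genes. The 134 fbxa genes of such a mean had 84 below 0 and 50 above, with a median of -0.12. Adding 1 FPKM shrinks the ratios of genes near 1 FPKM, where many members lie. On plain FPKM the highest library was under 1.5 times the lowest in 18 of the 24 members, and in 86.1% of all such genes above 0 in every library.

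The F-box B genes lay lower in this comparison. Of the 6 above the mean of 1 FPKM, 5 were below gfp, where 43.5% of all genes were. The median log2 ratio of the 6 was -0.32. This median rests on 6 genes and moved with the settings: it was -0.48 with 0.1 FPKM added, -0.12 with 5 FPKM added, -0.19 at a mean of at least 0.3 FPKM and 0 with no filter. The furthest were fbxb-97, with a log2 ratio of -0.40, and fbxb-14 (W08F4.9; chromosome II, 582111 to 582749, minus strand), also with -0.40. The gene fbxb-14 was at 1.39 FPKM in the control, 0.817 in the library labelled ham-3 and 1.49 in the swsn-2.2 library, and it overlaps the same-strand gene W08F4.12. The value of fbxb-97 rested on about 27 control fragments against 25 in the library labelled ham-3. Its FPKM ratio was -0.76 on the log2 scale, with a 95% counting interval of -1.61 to 0.08. This interval (exact conditional binomial) covers counting error only, and with 1 library per group it leaves out variation between animals. Copies made by PCR are not independent molecules, so the interval may be too narrow even for counting error. It includes 0, so at this depth the difference was not detectable. With 0.1 FPKM added in place of 1 FPKM, fbxb-97 and fbxb-14 were the 2 members at least 1.5-fold lower, where 5.50% of all genes were.

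The F-box C genes were closer to gfp, with 10 below (43.5% of all genes were), 8 above and a median of -0.03. The furthest below was fbxc-2, with a log2 ratio of -0.33 on the scale of FPKM + 1, and the furthest above was fbxc-33, with 0.22. Counting intervals could be computed for 23 of the 24 members, and that of fbxc-2 was the 1 interval without 0. Its log2 FPKM ratio was -0.38 (-0.71 to -0.05). Each interval was set for 1 gene alone, so among 23 some can leave out 0 from counting error. No share over all genes is given for comparison, so this count does not set fbxc-2 apart. As a copy within the array on chromosome IV, fbxc-2 has the annotated span and exon length of fbxc-1, and the sum over the 5 shorter genes was closer to gfp.

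The second comparison set the swsn-2.2 library against the same gfp library. Again none of the 24 members was 1.5-fold higher or lower, where 6.54% of all genes with a mean of at least 1 FPKM were (4.06% higher and 2.48% lower, or 3.36% and 3.25% after centring on the median gene). With genes listed at 0 in any library left out, 2.31% were higher and 1.40% lower. The members' log2 ratios lay between -0.36 and 0.35, with 17 above 0 and 7 below. The median was 0.08, as over all genes. Both comparisons share the gfp library, so their values are not independent.

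In the swsn-2.2 library 14 of the 18 fbxc genes were above gfp, with a median log2 ratio of 0.10, and 64.9% of all genes were above gfp too. After centring on the median gene 11 of the 18 were above and the median was 0.02, and with upper quartile scaling 10 were above and the median was 0.01. The furthest above were fbxc-33, with 0.35, and the pseudogene fbxc-6, with 0.34. The counting interval left out 0 for fbxc-50 (log2 FPKM ratio 0.22, 0.02 to 0.43) and fbxc-45 (0.29, 0.04 to 0.55) above gfp. Below gfp it left out 0 for the array copies fbxc-2 (-0.36, -0.69 to -0.03) and fbxc-1. For the other 19 members the interval included 0. Among so many intervals some can leave out 0 from counting error alone, and no share over all genes is given. The 6 fbxb genes were divided, 3 above and 3 below, with a median of -0.01. The lowest was fbxb-38 (C33C12.5; chromosome II, 2167691 to 2168763, minus strand), at 1.52 FPKM in the control, 1.61 in the library labelled ham-3 and 0.971 in the swsn-2.2 library. With 0.1 FPKM added it was the 1 member at least 1.5-fold lower, where 3.62% of all genes were.

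**Figure D4:**
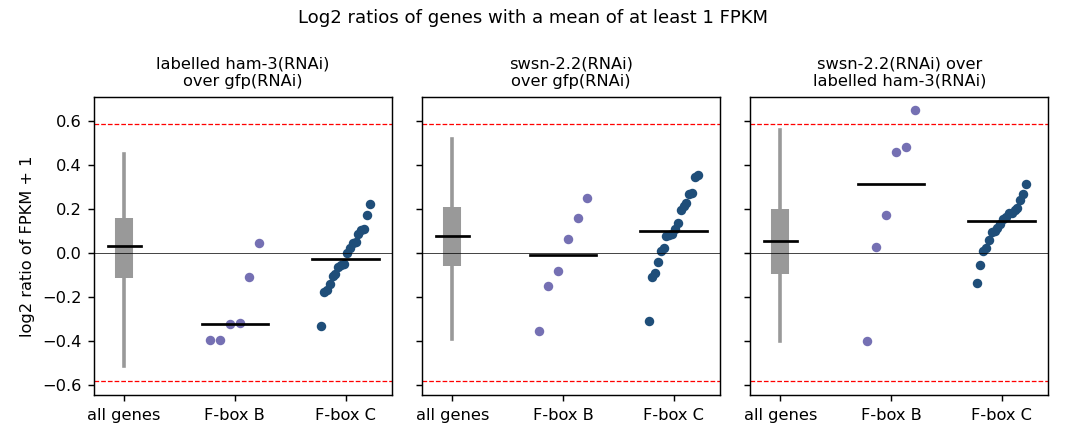
Log2 ratios of FPKM + 1 for the 3 pairs of libraries, with the F-box B and C members as points, their median as a line, and all 14816 genes with a mean of at least 1 FPKM as a bar from the 25th to the 75th percentile and a line from the 5th to the 95th. Dashed lines mark 1.5-fold, and fbxb-97 in the right panel is the 1 member beyond them.

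The RNAi libraries were also set against each other, a comparison that does not use the control and has nearly equal depth on both sides. In it 21 of the 24 members were higher with swsn-2.2 RNAi than in the library labelled ham-3, and 3 were lower. The median log2 ratio was 0.16, beside 0.05 over all genes with a mean of at least 1 FPKM, of which 59.4% were above 0. The shift was not particular to the members. Of the 134 fbxa genes of such a mean 104 were higher and 30 lower, with a median of 0.17. Of the 24 SCF core genes of such a mean 20 were higher and 4 lower, with a median of 0.08. For fbxb genes the median was 0.31 and for fbxc genes 0.14. The fbxb median was 0.16 at a mean of at least 0.3 FPKM, 0.11 with 5 FPKM added and 0.04 with no filter. After centring on the median gene, 4 of the 6 fbxb and 14 of the 18 fbxc genes were higher, and with upper quartile scaling 4 and 13, where 45.5% of all genes were. Of the 24 members, the library labelled ham-3 was the lowest of the 3 libraries in 14 and the swsn-2.2 library the highest in 17. Over all genes these shares were 34.6% and 47.0%.

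One member passed 1.5-fold in this direct comparison, where 7.49% of all genes did (4.61% higher and 2.88% lower). It was fbxb-97, with a log2 ratio of 0.65 on the scale of FPKM + 1. The log2 FPKM ratio was 1.16, with a counting interval of 0.49 to 1.93, from about 57 fragments against 25. The same interval left out 0 for fbxb-7 (0.63, 0.19 to 1.07), fbxc-50 (0.28, 0.10 to 0.46), fbxc-44 (0.21, 0.05 to 0.37) and fbxc-47. All of these were higher in the swsn-2.2 library. These intervals compare libraries, not animals. Among all those computed some can leave out 0 from counting error alone, and no share over all genes is given. With 5 FPKM added no member passed, where 2.66% of all genes were higher and 1.88% lower. At a fold of 2 no member passed either, where 1.88% of all genes were higher and 1.69% lower. With 0.1 FPKM added 3 members were higher and 1 was lower, where 6.28% and 3.77% of all genes were. Without genes listed at 0 in any library, 3.38% of all genes were at least 1.5-fold higher and 1.41% lower.

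**Figure D5:**
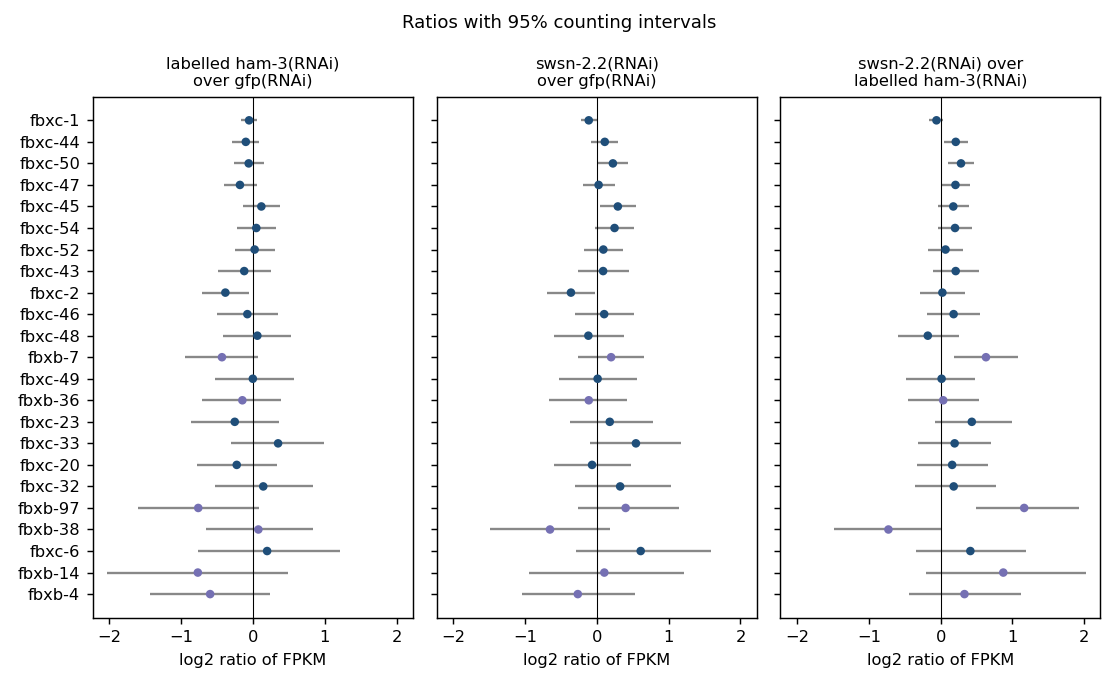
Log2 ratios of FPKM with 95% counting intervals for the 23 members with a mean of at least 1 FPKM and inferred fragments, for the 3 pairs of libraries, ordered by mean level. Intervals narrow towards the top, where levels are higher, and most include 0 against gfp, while fbxb-97 and fbxb-7 lie above 0 in the right panel.

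The authors' own comparison gave few low p-values for these genes. In the authors' deposited table, 91 members had a test for ham-3(RNAi), and 3 of them (3.30%) had a p-value under 0.05, where 11.2% of all tested genes did. For swsn-2.2(RNAi) the table had tests for 103 members, and 2 (1.94%) were under 0.05, where 13.3% of all tested genes were. All 5 were weak genes, with no value above 0.484 FPKM. These shares do not compare like with like, because most tested members have a mean under 1 FPKM and rest on few fragments. For example, fbxb-95 had about 1 fragment in the library labelled ham-3 and a listed 0 in gfp. Its unadjusted p-value from the authors' Cuffdiff comparison was 0.159. The part of level in the lower shares was not tested. The lowest p-value among the 24 members above a mean of 1 FPKM was 0.0573 for ham-3(RNAi), of fbxb-97, and 0.0818 for swsn-2.2(RNAi), of fbxc-2, both from the authors' deposited table and not adjusted. No fbxb and no fbxc gene stands in the lists of changed genes that the authors deposited. Those lists take up 0.561% (higher) and 1.19% (lower) of listed genes for ham-3(RNAi) and 1.26% and 0.756% for swsn-2.2(RNAi). The authors' deposited lists for ham-3(RNAi) hold 2 fbxa genes as higher and 20 as lower, and those for swsn-2.2(RNAi) hold 2 and 4. The difference between the F-box classes was not tested.

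The 5 weak genes showed how few fragments stood behind such values. The gene fbxb-69 (F09C3.5; chromosome I, 14283470 to 14285325, minus strand) was at 0.484 FPKM in the control, 0.0771 in the library labelled ham-3 and 0.193 in the swsn-2.2 library, from about 8, 2 and 5 fragments. The gene fbxb-8, also on chromosome I, was at 0.262 FPKM in the control and at 0.0833 in the swsn-2.2 library, and the library labelled ham-3 listed it at 0. The gene fbxc-34 was at 0.196, 0 and 0.0415 FPKM, and both were highest in gfp. For swsn-2.2(RNAi), fbxb-77 went from 0.231 FPKM in the control to a listed 0, with 0.0737 in the library labelled ham-3, and fbxb-102 was at 0.109 FPKM and listed at 0 in the other 2 libraries.

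The 86 members above 0 with a mean under 1 FPKM were seen more often in the swsn-2.2 library. Of them, 53 were above 0 in the control, 53 in the library labelled ham-3 and 71 in the swsn-2.2 library. Over all 5679 genes of that level the shares above 0 were 70.1%, 78.8% and 79.8%. Among the 62 such fbxb genes, 17 were above 0 in the swsn-2.2 library alone, 6 in the library labelled ham-3 alone and 4 in gfp alone. Over all 5679 genes of that level these counts were 567, 549 and 337, and over the 74 such fbxa genes 7, 7 and 1. Most of the 17 fbxb genes rested on about 1 fragment, among them fbxb-1 and fbxb-35. Summed over the 78 members with inferred fragments, about 207 fragments were seen in the control, 260 in the library labelled ham-3 and 356 in the swsn-2.2 library. The summed levels of the 86 were 11.9, 9.46 and 11.9 FPKM, so scaled for depth the swsn-2.2 library was level with the control and the library labelled ham-3 was lower. Over all genes of that level the sums were 1527, 1531 and 1598 FPKM. Just inside the mean of 1 FPKM was fbxc-36, and just outside was fbxb-67, at 0.736, 0.782 and 1.02 FPKM.

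The core partners of F-box proteins in the SCF ligase were above most members, while some SCF genes were as low as the members. The cullin gene cul-1 was at 44.7 FPKM in the control, 51.9 in the library labelled ham-3 and 53.1 in the swsn-2.2 library. These were below the values listed for the array copy fbxc-1 in every library. The RING gene rbx-1 was at 167, 155 and 178 FPKM. The Skp1-related genes skr-1 and skr-2, which encode the linkers used most widely, were at 379 and 151 FPKM in the control, 362 and 151 in the library labelled ham-3, and 407 and 167 in the swsn-2.2 library. Among other Skp1-related genes, skr-6, skr-8 and skr-12 were listed at 0 throughout, and skr-7 had a mean of 1.18 FPKM. Of 35 genes of the SCF core and its regulators by neddylation and the signalosome, 24 had a mean of at least 1 FPKM. In each comparison to gfp 1 of the 24 was 1.5-fold higher and 0 were lower, where 7.55% and 6.54% of all genes were called in either direction, so the counts are near the background. That gene was the signalosome gene csn-4, listed at 0 in the control, so no fold is given.

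Among the other SCF genes furthest from gfp, the linker gene skr-3 was at 204 FPKM in the control, 157 in the library labelled ham-3 and 196 in the swsn-2.2 library. The linker gene skr-11 was at 1.54, 2.60 and 2.38 FPKM. The linker gene skr-5 was at 31.4, 26.6 and 45.9 FPKM and was the 1 SCF gene past 1.5-fold between the RNAi libraries, with a log2 ratio of 0.76, where 7.49% of all genes passed. The median log2 ratio of the 24 genes was 0.03 for the library labelled ham-3 and 0.12 for the swsn-2.2 library, beside 0.03 and 0.08 over all genes. Of the 5 cullin genes other than cul-1, 4 had a mean of at least 1 FPKM, 0 of these were 1.5-fold apart in any pair of libraries, and cul-2 was listed at 0.

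Of 11 names of F-box genes with known roles 10 were listed, all with a mean of at least 1 FPKM. None of the 10 was 1.5-fold from gfp in either RNAi library, which with 7.55% and 6.54% of all genes called is near the background. The gene lin-23, which restrains cell division, was at 51.1 FPKM in the control, 52.2 in the library labelled ham-3 and 54.9 in the swsn-2.2 library, and sel-10, a negative regulator of Notch signalling, at 42.8, 45.3 and 44.9. The gene mfb-1, related to the mammalian muscle atrophy F-box gene, was at 29.3, 23.3 and 23.8 FPKM. The gene ftr-1, a relative of the germline sex determination gene fog-2, was at 16.7, 16.1 and 20.04 FPKM.

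Markers of the tissues of the whole larva were present in all libraries, with exceptions at 0. Summed FPKM of germline markers (5 genes) was 730 to 746 over the 3 libraries, of sperm markers (5) 2666 to 2895, of intestine markers (5) 876 to 981 and of hypodermis markers (5) 2594 to 2717. Body wall muscle markers (4) summed to 1769 to 2017 FPKM and neuron markers (5) to 285 to 299. Pharynx markers (3) summed to 77.9 FPKM in the control, 85.1 in the library labelled ham-3 and 55.4 in the swsn-2.2 library. In that order myo-1 was at 33.2, 37.5 and 20.9 FPKM, myo-2 at 27.7, 32.4 and 18.3, and pha-4 at 17.1, 15.2 and 16.2. Hypodermis genes moved both ways under their sum. From the control to the swsn-2.2 library, col-19 went from 884 to 1181.5 FPKM, dpy-13 from 1055 to 745, sqt-3 from 529 to 421 and rol-6 from 249 to 213. The neuron gene rab-3 was listed at 0 in all libraries, the intestine gene ges-1 in both RNAi libraries, the hypodermis gene dpy-7 in gfp and the neuron gene unc-31 in the library labelled ham-3. The part of these differences in the members' values was not tested.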

How the data were processed

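Poly(A) RNA of whole L4 larvae was sequenced in pairs of 73 bp reads, 1 library per group, per the labels' protocols. The deposited gene and transcript tables hold FPKM values that the authors made with Cufflinks, per the submitters' processing notes, and a log2 fold and an unadjusted p-value made by the authors with Cuffdiff. The lists of changed genes that the authors deposited add a q-value (a p-value adjusted by the authors). A log2 fold of 33.33 or -33.33 in the deposited tables stands for a library at 0, and a fold of 0 with a p-value of 1 was read as no test. For program versions, aligner and genome build, the sources used here give none. The gfp column was the same in both gene tables, so the 3 libraries shared a scale.

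All 168 members were matched to Ensembl release 115 (WBcel235) by sequence name, and the deposited coordinates of 166 overlapped the annotated gene. Since 16 had the same start and end, printed coordinates are those of Ensembl. The log2 ratio of FPKM + 1 was taken for each pair of libraries over genes with a mean of at least 1 FPKM over the 3 libraries, and a gene was counted at 1.5-fold. Fragment totals and a length offset of 160 bp were estimated from the steps between FPKM values up to 0.3 in genes with 1 transcript of at least 500 bp. Of the values used, 57.6% to 59.8% came within 0.1 of a whole number, so fragment numbers are approximate. Counting intervals of 95% are exact conditional binomial (Clopper-Pearson). With 1 library per group no test was run. The steps were tested on simulated data. Python 3.11.15, pandas 2.3.3, numpy 2.4.6, scipy 1.17.1 and matplotlib 3.10.9 were used.

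Named genes were the targeted genes, the 8 members with the highest mean, members 1.5-fold from gfp or at 0 in a library and at 1 FPKM in another (0 of either), those in the authors' lists (0), and those nearest the filter. Of the SCF genes, cul-1, rbx-1, skr-1, skr-2, lin-23, sel-10 and the 3 furthest per comparison were named. Other members were named after their values were seen. The members and gene lists were chosen with earlier results of these data known. Alternatives were a pseudocount of 0.1 or 5 FPKM, other filters, centring, upper quartile scaling, the transcript table, leaving out genes listed at 0, and a fold of 2. No member sequences were used here.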

Additional observations from a re-analysis of the deposited data

Results flagged for a closer look

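The gene fbxb-97 lay below gfp in the library labelled ham-3 and above it in the swsn-2.2 library, and the RNAi libraries differed by more than 1.5-fold. Its level was 1.43 FPKM in the control, 0.846 in the library labelled ham-3 and 1.89 in the swsn-2.2 library. The log2 ratio of FPKM + 1 between the RNAi libraries was 0.65. With 1 library per group the difference was not tested across animals.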

How the results depend on the processing

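No paired analysis was possible because each group has 1 library, and for the same reason no library could be left out. Of 111 counts and medians recomputed under the 10 alternatives, 95 stayed within 1.5 times (counts) or within 0.1 on the log2 scale (medians), and 16 did not. At a pseudocount of 0.1 FPKM, 2 members (fbxb-14 and fbxb-97) were at least 1.5-fold lower in the library labelled ham-3 than in gfp, where the fbxb median was -0.48 (and 0.46 between the RNAi libraries), and 1 (fbxb-38) was lower in the swsn-2.2 library. Between the RNAi libraries, 3 members (fbxb-97, fbxb-14 and fbxb-7) were then higher in the swsn-2.2 library and 1 (fbxb-38) lower. Of all genes, 5.50% were then at least 1.5-fold lower than gfp in the library labelled ham-3, and 3.62% in the swsn-2.2 library. Between the RNAi libraries 6.28% of all genes were higher in the swsn-2.2 library and 3.77% lower. The count of 1 member higher between the RNAi libraries became 0 at a pseudocount of 5 FPKM, at a mean of at least 5 FPKM and at a fold of 2. Of all genes 2.66%, 3.79% and 1.88% were higher at these settings. The fbxb median for the library labelled ham-3 against gfp was -0.12 with 5 FPKM added, -0.19 at a mean of at least 0.3 FPKM and 0 with no filter, and between the RNAi libraries it was 0.11, 0.16 and 0.040. At a mean of at least 0.3 FPKM the fbxb median for swsn-2.2 against gfp was 0.091. Of 606 values of single members under the alternatives, 601 stayed within the member's counting interval (for fbxc-36, which has none, within 0.1), and 16 changed sign, all of them from a log2 ratio of 0.08 or less in size. Settings that change only the filter, or leave out genes listed at 0, cannot change a member's own ratio. Many of the 601 were thus fixed in advance, and the counting intervals are wide, so this count is no measure of robustness. The filter kept 24 members, no filter kept 110 and a mean of 5 FPKM kept 10. Depth limits most members: those under 1 FPKM rest on few fragments, and copies within tandem groups may share reads.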

Other observations

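Several folds in the authors' deposited table equal the ratio that the same number of fragments in both libraries gives. The same number of fragments in the control and in the deeper library labelled ham-3 gives a log2 FPKM ratio of -0.65, and 12 of the 63 members above 0 in both had that ratio within 0.01. One of them, fbxb-88, was at 0.543 and 0.346 FPKM, from about 12 fragments in each library. For the swsn-2.2 library 8 of 69 members had the ratio that equal fragments give, among them fbxb-38. No share over all genes is given for these counts. Some of the 12 had inferred fragments not near a whole number, such as fbxb-6, with 0.77 in the control and 0.77 in the library labelled ham-3.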
